A study of Mus musculus with 20 samples.

Results

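The transcripts described here are those of 9 mouse genes of fatty acid use in the heart, Ppara, Pdk4, Ucp3, Angptl4, Acot1, Acot2, Plin2, Plin5 and Pnpla2. They were chosen by name, as rows of a table of 29339 genes, and all 9 were found. PPAR-alpha, the product of Ppara, is a nuclear receptor that is switched on by fatty acids and binds DNA together with a retinoid X receptor (RXR). In the heart it drives genes for the uptake, storage and burning of fat, and its targets rise in fasting. Fat that is not burned at once is stored as triglyceride in lipid droplets, whose coat proteins control the access of lipases.

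The data are 20 libraries of heart RNA from C57BL/6 mice aged 8 weeks, wild type (WT) or TECRL-/- (knockout, KO), with no treatment named. There were 5 libraries labelled male WT (WT1, WT2, S7, S8, S9), 5 male KO (S10, S11, S12, TKO5, TKO6), 3 female WT (S1 to S3) and 7 female KO (S4 to S6, TKO1 to TKO4). Tecrl encodes an enoyl-CoA reductase-like protein, and its loss is linked to an inherited arrhythmia, catecholaminergic polymorphic ventricular tachycardia. The study compared KO with WT hearts within each sex. The sources used here do not give the deleted part of Tecrl, the number of founder lines or whether littermates were used, and name no chamber of the heart. The library names form 2 series, S (12 libraries) and WT/TKO (8 libraries), and no library labelled female WT is in the WT/TKO series. The study's methods describe 3 mice in each group with a library made per mouse, fewer than the 20 libraries here, and which libraries the study used is not given in the sources used here. The labels do not tie libraries to animals, so p-values measure the spread between these libraries only.

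Several libraries went against their labels or stood apart. Tecrl was at 51.9 to 123 CPM (read counts scaled to a common library size) in libraries labelled WT and at 60.3 to 99.4 CPM in those labelled KO, and did not differ between them (log2 fold change 0.04, adjusted p = 0.996, edgeR quasi-likelihood test over all 20 libraries). In 6 libraries the sex-linked genes went against the labelled sex: S7, S8 and S9, labelled male, held Xist at 252 to 325 CPM and 0 CPM of Ddx3y, while S4, S5 and S6, labelled female, held Ddx3y at 83.4 to 102 CPM and Xist at no more than 0.256 CPM. Within the S series, all libraries labelled WT thus expressed Xist and all labelled KO the Y-linked genes, which means that a difference by genotype label and one by sex-linked expression cannot be told apart there. Total counts ran from 12540002 to 20038593, and no library pair of a group held identical values. Summed CPM of 5 atrial cardiomyocyte markers (Nppa, Myl7, Myl4, Sln, Bmp10) was 7207 in S11, 7014 in S7, 5894 in S9, 2061 in S12, 537 in S10, 349 in S6 and 246 in S5, against 9.33 to 42.2 in the other 13 libraries. White adipocyte markers summed to 938 CPM in S7 and to at most 41.3 CPM elsewhere, with Lep under 4 counts in all 20 libraries. The 8 ventricular markers were high everywhere, from 45721 to 70997 CPM.

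The genes lie on 6 chromosomes of GRCm38 and are all protein coding, with no exon shared with another gene. The receptor gene Ppara (ENSMUSG00000022383) spans chr15:85734983-85802819 on the plus strand. Pdk4 (ENSMUSG00000019577; chr6:5483351-5496309, minus strand) encodes the kinase that switches off pyruvate dehydrogenase, and with it glucose oxidation. Ucp3 (ENSMUSG00000032942; chr7:100472990-100486432, plus strand) encodes a carrier of the inner mitochondrial membrane. Angptl4 (ENSMUSG00000002289; chr17:33773750-33781830, minus strand) encodes a secreted inhibitor of lipoprotein lipase. Acot1 (ENSMUSG00000072949; chr12:84009490-84018371, plus strand) and Acot2 (ENSMUSG00000021226; chr12:83987861-83993873, plus strand) encode a cytosolic and a mitochondrial thioesterase that free fatty acids from coenzyme A. These neighbours are near copies: 13.56% of the 50-base stretches of Acot1 transcripts and 24.55% of those of Acot2 occur in the other gene, and at the 150 bases of a read 5.50% and 10.2% do, so their counts may be partly shared. Plin2 (ENSMUSG00000028494; chr4:86648386-86670060, minus strand) and Plin5 (ENSMUSG00000011305; chr17:56111601-56117596, minus strand) encode perilipins, coat proteins of the lipid droplet, Plin5 being that of oxidative tissues. Pnpla2 (ENSMUSG00000025509; chr7:141455198-141460743, plus strand) encodes adipose triglyceride lipase, which takes the first fatty acid off stored triglyceride.

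PPAR:RXR dimers bind 2 copies of AGGTCA with 1 base between them (AGGTCANAGGTCA). RefSeq promoter windows of GRCm38.p6, from 250 bases before to 50 after the transcript start, were at hand for 8 of the 9 genes (9 windows, 2 of them of Plin5, not Angptl4) and were searched on both strands. Those of 4 genes are shown, 5′ to 3′ on the gene's strand, with matches in capitals. Ucp3 (chr7:100472741-100473040, plus strand) and Plin2 (chr4:86670010-86670309, minus strand) were the only members searched with a repeat of up to 2 differing bases. Neither repeat was exact. Plin5 (chr17:56117499-56117798, minus strand) held a lone half-site and Acot1 (chr12:84009252-84009551, plus strand) no match. Over libraries, the level of Acot1 varied among the most closely with those of other members.
Ucp3: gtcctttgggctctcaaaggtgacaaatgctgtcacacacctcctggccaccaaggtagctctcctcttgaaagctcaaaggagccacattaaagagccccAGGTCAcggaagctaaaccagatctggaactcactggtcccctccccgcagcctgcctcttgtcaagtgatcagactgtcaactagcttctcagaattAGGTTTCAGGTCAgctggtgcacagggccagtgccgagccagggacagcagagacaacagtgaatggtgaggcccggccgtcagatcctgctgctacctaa
Plin2: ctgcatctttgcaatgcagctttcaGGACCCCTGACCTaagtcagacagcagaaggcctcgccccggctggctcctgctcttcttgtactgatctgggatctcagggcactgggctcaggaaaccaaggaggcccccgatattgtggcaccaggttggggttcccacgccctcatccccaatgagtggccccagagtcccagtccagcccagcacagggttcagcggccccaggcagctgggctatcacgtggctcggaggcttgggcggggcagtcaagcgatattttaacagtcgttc
Plin5: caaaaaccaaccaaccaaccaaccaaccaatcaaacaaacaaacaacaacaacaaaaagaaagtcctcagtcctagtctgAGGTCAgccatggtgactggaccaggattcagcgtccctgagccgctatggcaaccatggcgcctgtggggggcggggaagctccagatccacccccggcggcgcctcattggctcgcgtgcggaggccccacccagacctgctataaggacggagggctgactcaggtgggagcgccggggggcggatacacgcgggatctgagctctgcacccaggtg
Acot1: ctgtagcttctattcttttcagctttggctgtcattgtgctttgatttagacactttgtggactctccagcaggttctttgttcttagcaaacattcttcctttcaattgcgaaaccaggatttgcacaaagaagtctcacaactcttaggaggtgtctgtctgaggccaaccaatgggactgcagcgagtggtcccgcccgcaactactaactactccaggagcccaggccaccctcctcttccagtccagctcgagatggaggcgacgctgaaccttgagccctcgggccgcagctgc

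The Ucp3 window held the half-site AGGTCA at positions -149 and -44 from the start, the latter inside AGGTTTCAGGTCA, which begins at -51 and differs from the repeat at 2 of its 12 defined bases. In Plin2 the match was on the opposite strand, as GGACCCCTGACCT at -225, also with 2 differing bases. Plin5 held AGGTCA at -170 and, in its other window, 13 bases after the start. No half-site and no repeat with up to 2 differing bases was found for Ppara, Pdk4, Acot1, Acot2 or Pnpla2. Of all 32851 windows, 16.26% held the half-site and 3.86% a repeat with up to 2 differing bases. A match is a run of letters, and the data here hold no measurement of binding.

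Levels are first given as FPKM, the authors' read counts scaled for gene length and library depth, which can be compared between genes. Pdk4 was the highest, with a median of 991 FPKM over 20 libraries, followed by Pnpla2 at 210.4, Plin5 at 122, Ucp3 at 85.2, Acot2 at 61.6, Plin2 at 22.8, Angptl4 at 19.5, Acot1 at 9.998 and Ppara at 3.22. The messages for the kinase and the lipase were thus far above that of the receptor. The order of Pdk4, Pnpla2, Plin5 and Ucp3 held in each of the 20 libraries. Ucp3 was above Acot2 in 17 of 20 libraries and Plin2 above Angptl4 in 16 of 20, so these neighbours overlapped over libraries. Angptl4 was above Acot1, and Acot1 above Ppara, in 19 of 20.

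Between libraries the levels were compared as CPM, scaled by the trimmed mean of M values (TMM). Between the highest and lowest library Ucp3 varied most, 6.41-fold, followed by Ppara (5.68-fold), Acot1 (4.76-fold) and Pdk4 (4.24-fold). The rank of Ucp3 rested on S7, its next lowest library being S11 at 97.2 CPM. By the coefficient of variation Ppara varied most, at 53.9% against 35.2% for Ucp3. Pnpla2 varied least, 1.92-fold, with a coefficient of variation of 16.9%. The receptor message Ppara ran from 5.56 CPM in S2 to 31.6 CPM in WT1. Among the targets, Pdk4 ran from 1460.1 CPM in S12 to 6191 CPM in WT1, and Ucp3 from 56.6 CPM in S7 to 363 CPM in WT1. Acot1 and Acot2 ran from 18.3 CPM (S11) to 87.0 CPM (S1) and from 59.0 CPM (S12) to 232 CPM (S8). Of the lipid droplet genes, Plin2 ran from 46.1 CPM (S11) to 153 CPM (S1), Plin5 from 139 CPM (S7) to 507 CPM (S1) and Pnpla2 from 473 CPM (S11) to 908 CPM (S8). The lowest libraries thus all belonged to the S series, and the highest were WT1, S1 and S8. For Angptl4 alone the highest was S2, at 176 CPM, with 44.4 CPM in S11 as its lowest. S1, WT1, S2 and S8 also had the highest total counts of the 20 libraries (16499292 to 20038593). The Pearson r of log2 CPM with log2 total counts ran from 0.41 for Ppara to 0.72 for Acot1. The part of depth in these levels was not tested. Among genes with a mean log2 CPM of 5 or more, the SD of log2 CPM of Ucp3 was at the 97.9th percentile and that of Pdk4 at the 95.1st, while Pnpla2 was at the 47.9th. Ppara, whose own mean was lower, had 86 counts or more in every library.

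**Figure D1:**
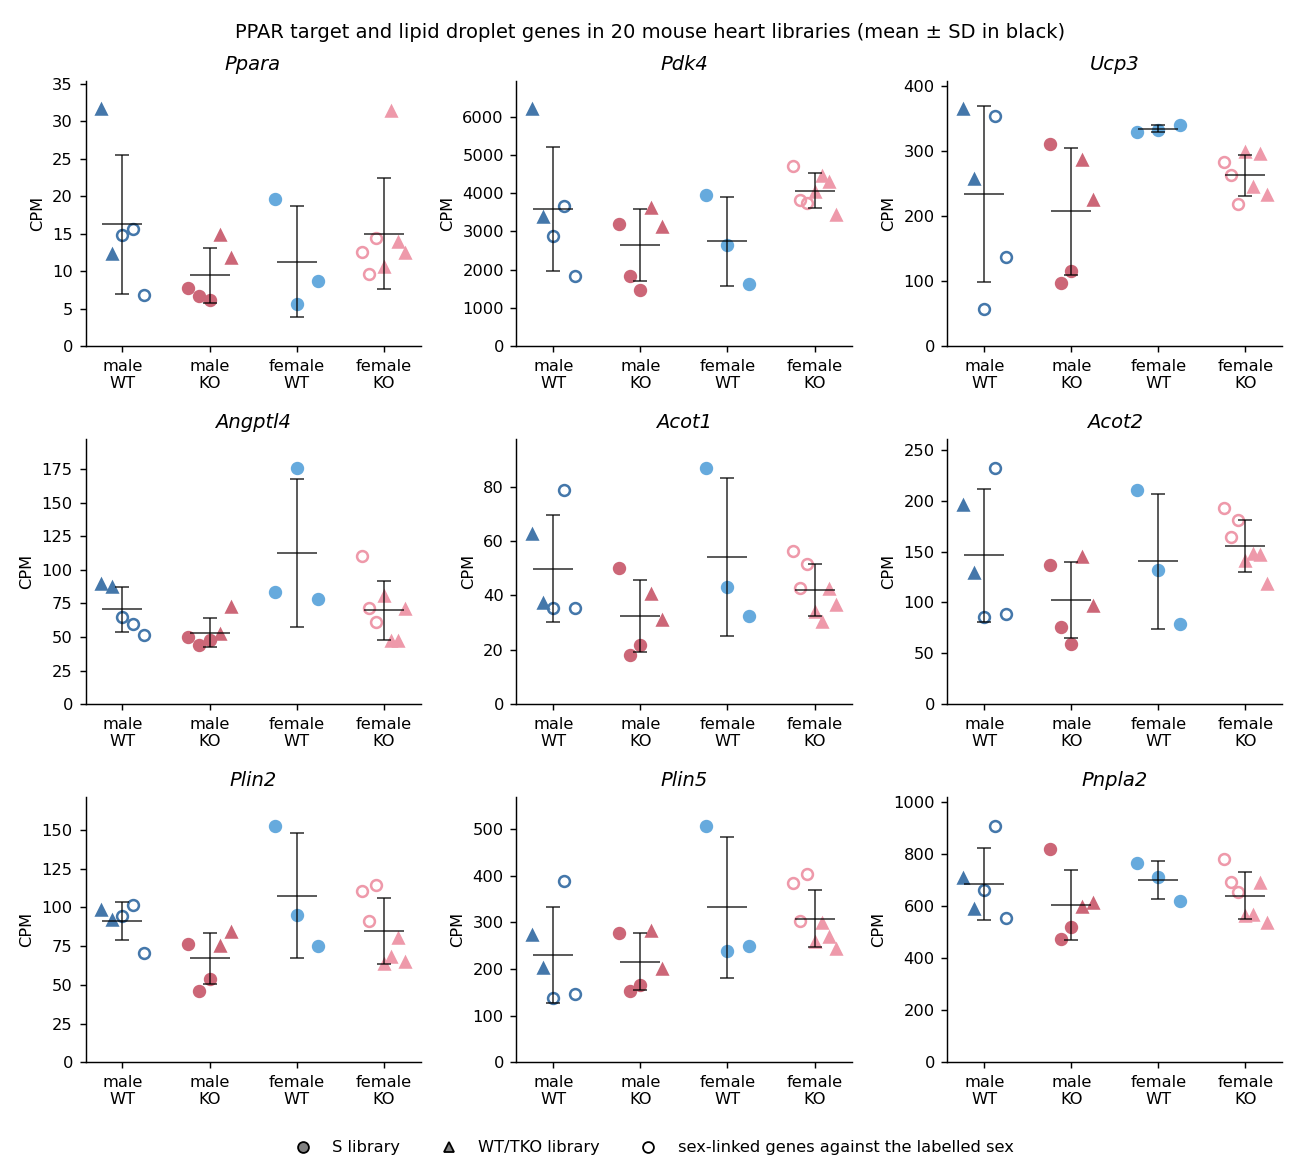
CPM (vertical axis, from 0) of the 9 genes in 20 libraries by labelled group; circles are S libraries, triangles WT/TKO libraries, hollow points the 6 libraries whose sex-linked genes go against the label, and black marks the mean ± SD. Only for Ucp3 in the libraries labelled female do KO and WT points not overlap.

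In the libraries labelled male, all 9 genes were lower in KO than in WT on average, with a median log2 fold change of -0.45 against -0.01 over all 14481 genes tested, but none had an adjusted p under 0.05 (background 0.0% of genes). The largest differences were those of Ppara, the thioesterases and Plin2. The receptor Ppara was at 31.6 CPM in WT1, 12.3 in WT2, 14.8 in S7, 15.7 in S8 and 6.88 in S9, and at 7.70 CPM in S10, 6.72 in S11, 6.20 in S12, 14.8 in TKO5 and 11.8 in TKO6. Its mean was 16.2 ± 9.23 CPM in WT and 9.43 ± 3.70 CPM in KO (SD, n = 5 each), and the groups overlapped, with WT1 far above the rest. The log2 fold change was -0.82 (SE 0.283, unadjusted p = 0.0137, adjusted p = 0.882, edgeR). Angptl4, which restrains lipoprotein lipase, was at 89.1 CPM in WT1, 87.5 in WT2, 65.2 in S7, 59.4 in S8 and 51.7 in S9, and at 49.7 CPM in S10, 44.4 in S11, 48.0 in S12, 52.3 in TKO5 and 72.3 in TKO6. Within each series its KO libraries were below the WT libraries, while the pooled groups overlapped (mean ± SD of 70.6 ± 16.9 CPM in WT and 53.3 ± 10.98 CPM in KO, n = 5 each). Its log2 fold change was -0.40 (SE 0.117, edgeR unadjusted p = 0.0055, adjusted p = 0.882). Groups without overlap were found for 9.56% of genes in the 6 S libraries labelled male and for 26.3% in the 4 WT/TKO libraries. The droplet coat gene Plin2 was at 70.5 to 101 CPM in WT and at 46.1 to 84.0 CPM in KO (log2 fold change -0.47, SE 0.159, edgeR unadjusted p = 0.0121, adjusted p = 0.882). S11 and S12 held its lowest values, and in the WT/TKO libraries both KO values were below both WT values.

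The other 6 genes had an edgeR unadjusted p of 0.0677 or more in the libraries labelled male. The log2 fold change was -0.65 for Acot1, -0.54 for Acot2, -0.45 for Pdk4, -0.19 for Pnpla2, -0.17 for Ucp3 and -0.12 for Plin5. Ucp3 and Plin5 turned higher in KO without S8 (0.31 and 0.25), and Plin5 also without S7 to S9 (0.00), a fit that sets TKO5 and TKO6 against only WT1 and WT2. At the study's thresholds, a log2 fold change of 0.58 or more in size with an unadjusted p under 0.05, Ppara alone was called, against 2.09% of all genes. That count was 0 without WT1 (241 of all 14411 genes), 2 without WT2 (484 of 14389), 2 without S7 (219 of 14326) and 5 without S10 (286 of 14430). An unadjusted p under 0.05 was reached by 3 of the 9 genes with edgeR (background 4.75%), by 4 with DESeq2 (background 5.34%) and by 4 with limma on log2(FPKM + 1) (background 4.26%), with no adjusted p under 0.05 by either alternative. No member's groups were free of overlap, as were those of 0.599% of genes.

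The male groups differed in other ways. Of the 5 white adipocyte markers tested, 5 were lower in KO with an unadjusted p under 0.05 by edgeR (4.75% of all genes). S7, a WT library, held the most by far. Of 5 endothelial markers 4 were higher, 1 with such a p, Tie1 (0.37). All 5 macrophage markers were lower (median -0.20), 0 with such a p. Xist (-8.55) was lower and 4 Y-linked genes were higher, each with such a p. The part of these genes in the result was not tested. S7 and S9 in WT and S10, S11 and S12 in KO held atrial transcripts. Without these 5 libraries S8 is the only S library left, so with the series term the fold changes come from TKO5 and TKO6 against WT1 and WT2 alone. In that fit 8 of 9 genes were lower in KO (median log2 fold change -0.44), Plin5 being at 0.01. Plin2 moved from -0.47 to -0.27. Angptl4 alone kept an unadjusted p under 0.05 (-0.51, edgeR unadjusted p = 0.0263), against 356 of 13454 genes with such a p. No member had an adjusted p under 0.05. Ppara lost its call, with means of 13.3 CPM in TKO5 and TKO6 and 21.9 CPM in WT1 and WT2. Less RNA per cell and fewer cells of a type cannot be told apart in RNA of bulk tissue.

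In the libraries labelled female, 5 genes were higher and 4 lower in KO (median log2 fold change 0.02, all genes -0.02), but 7 were higher without S1 (median 0.41) and 2 without S3 (median -0.06). None had an adjusted p under 0.05, against 0.0551% of genes, and 2 had an unadjusted p under 0.05 by edgeR (background 17.9%), 2 by DESeq2 (background 18.1%) and 2 by limma (background 16.4%), a share near that of all genes. With the series term the fold changes come from the S libraries (S4, S5 and S6 over S1, S2 and S3), where Xist and the Y-linked genes differ as well, and TKO1 to TKO4 add to the estimate of the spread. Ucp3 was at 329 CPM in S1, 332 in S2 and 339 in S3, and in the 7 KO libraries at 219 CPM at the lowest, 263 at the median and 297 at the highest. On this scale all KO libraries lay below all WT libraries, which was the case in either direction for 4.82% of genes. The mean ± SD was 333.5 ± 5.27 CPM for the 3 WT and 262 ± 31.5 CPM for the 7 KO libraries. In FPKM the groups overlapped, TKO3 at 96.6 being just above S2 at 96.4, and the WT libraries spread more, at 105 ± 7.91 FPKM (SD, n = 3). The log2 fold change was -0.39 (SE 0.145, edgeR unadjusted p = 0.0186, adjusted p = 0.215). It stayed between -0.47 and -0.29 with any library left out, and was -0.32 without S4 to S6. The atrial marker sum was 13.8 to 42.2 CPM in WT and 10.5 to 349 CPM in KO, with the highest sum in S6, which had the lowest Ucp3. Of 4 atrial markers tested, 3 were higher in KO with an unadjusted p under 0.05 by edgeR, as against 17.9% of all genes in either direction. So were both white adipocyte markers tested, Cfd (log2 fold change 2.72) and Cidec (1.60), and 2 of 5 macrophage markers, Adgre1 (0.60) and Lyz2 (0.54). All 3 skeletal muscle markers tested were lower in KO (median -0.76), 1 of them with an unadjusted p under 0.05 by edgeR, Tnnt3 (-2.08), and 4 of 5 endothelial markers were lower, 1 with such a p. The part of these markers in the result was not tested.

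Pdk4 went the other way in these libraries. It was at 3942 CPM in S1, 2637 in S2 and 1634 in S3, and at 3422, 4028 and 4721 CPM as the lowest, median and highest of the 7 KO libraries. S1 lay among the KO libraries and the other WT libraries below all of them (mean ± SD of 2738 ± 1157 CPM for the 3 WT and 4068 ± 448 CPM for the 7 KO libraries). The log2 fold change was 0.58 (SE 0.250, edgeR unadjusted p = 0.0369, adjusted p = 0.258), which made Pdk4 the 1 member past the study's thresholds, against 9.99% of all genes. That count was 2 without S1, where 2954 of 14358 genes were past them, and 0 without S2, S3, S4, S5 or TKO1. S1 held the highest Acot1 (87.0 CPM), Plin2 (153 CPM) and Plin5 (507 CPM) of all 20 libraries. Without S1, 3 genes were higher in KO with an adjusted p under 0.05 by edgeR: Pdk4 (log2 fold change 0.94, adjusted p = 0.0096), Acot2 (0.76, adjusted p = 0.0193) and Plin5 (0.57, adjusted p = 0.0227). Of all 14358 genes tested without S1, 2409 (16.8%) then had an adjusted p under 0.05. In the full comparison Acot2 was at 0.35, Plin5 at 0.13, Ppara at 0.11, Pnpla2 at 0.02, Plin2 at -0.03, Acot1 at -0.11 and Angptl4 at -0.47. The Angptl4 value rested on S2, which at 176 CPM stood far above every other library. Without S2 it was 0.00. S2 also held the highest summed skeletal muscle markers, 19.7 CPM against at most 6.76 elsewhere, and the highest share of mitochondrial counts, 30.4% in a range from 15.3% over the 20 libraries. The part of either was not tested. Without S4 to S6, so that WT of the S series was set against TKO1 to TKO4 and series and genotype cannot be told apart, 7 of 9 genes were lower in KO (median log2 fold change -0.32). Angptl4 was then at -0.88 and Plin2 at -0.64, both past the study's thresholds, as were 15.1% of all genes in that fit, with no adjusted p under 0.05.

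**Figure D2:**
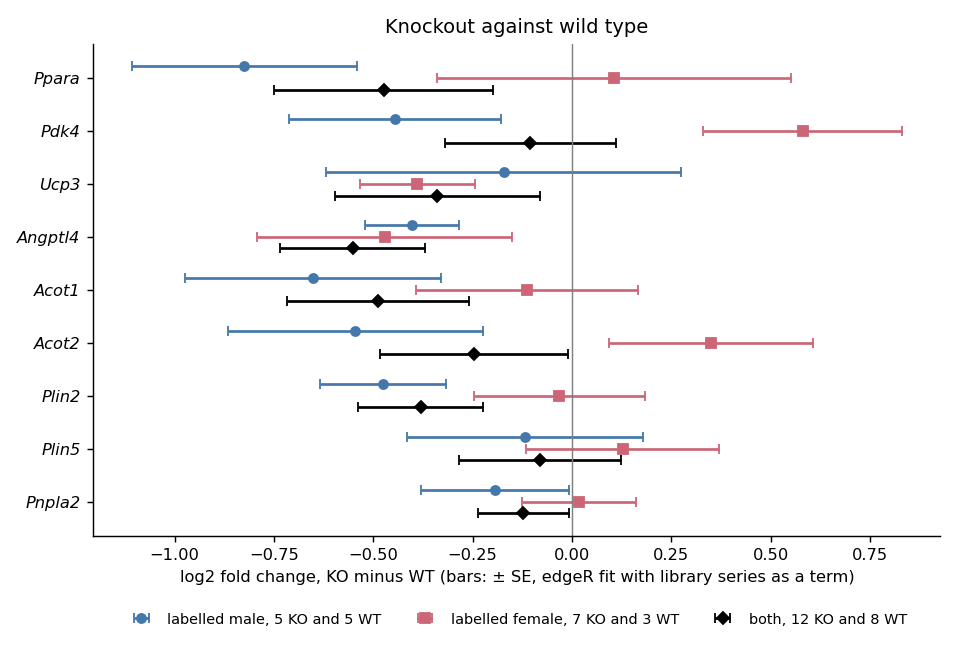
log2 fold change of KO against WT (horizontal axis) for the 9 genes, with bars of ± 1 SE from edgeR fits with library series as a term, in libraries labelled male (5 KO, 5 WT), female (7 KO, 3 WT) and both (12 KO, 8 WT). The male values lie between -0.82 and -0.12 and the female values between -0.47 and 0.58.

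Over both labelled sexes, all 9 genes were lower in KO, by a median of -0.34 (all 15187 genes -0.01). None had an adjusted p under 0.05 (background 0.0%) and none was past the study's thresholds (background 1.94%). An unadjusted p under 0.05 was reached by 3 genes with edgeR (background 4.93%), 3 with DESeq2 (background 5.50%) and 2 with limma (background 4.47%). Those of edgeR were Angptl4 (log2 fold change -0.55, SE 0.183, unadjusted p = 0.0067, adjusted p = 0.858), Plin2 (-0.38, edgeR unadjusted p = 0.0252, adjusted p = 0.996) and Acot1 (-0.49, edgeR unadjusted p = 0.0453, adjusted p = 0.996). Angptl4 was at 51.7 to 176 CPM in the 8 WT libraries (median 80.9) and at 44.4 to 110.5 CPM in the 12 KO libraries (median 56.8). Without the 5 libraries of highest atrial marker sum the median over the 9 genes was -0.13, and Pdk4 (0.14), Acot2 (0.03) and Plin5 (0.07) were higher in KO. Without the 6 libraries whose sex-linked genes go against the label, the median was -0.55 and Angptl4 (-0.84), Acot1 (-0.65) and Plin2 (-0.62) were past the study's thresholds (background 3.15% in that fit), again with no adjusted p under 0.05. The count past them was 1 without S8, S9, S10, TKO6, S1, S2 or S4, and 2 without S3. In these fits between 234 of 15118 genes (without S2) and 372 of 15120 (without S1) were past them, with 285 of 15114 without S3.

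The difference between the genotype effects of the labelled sexes was tested in 1 fit of all libraries. In the S libraries, KO against WT set Y-linked expression against Xist under both sex labels. The difference is thus one between labels there, not between sexes. It ran from -0.79 for Pdk4 to 0.41 for Ucp3 (male minus female), and no member had an adjusted p under 0.05 (background 0.0%). None had an unadjusted p under 0.05 by edgeR (background 15.6%), 1 by DESeq2 (background 16.8%) and 1 by limma (background 15.6%). For Pdk4, lower in male and higher in female KO libraries, the edgeR unadjusted p was 0.0644 (adjusted p = 0.343). The difference was negative for 7 of 9 members (median -0.14). Without S1 the median was -0.48, and Ppara (-1.45), Pdk4 (-1.14) and Acot2 (-1.06) had an unadjusted p under 0.05 by edgeR (background 25.9%). Without the 5 libraries of highest atrial marker sum 8 members were negative (median -0.23), with Pdk4 (-0.95) and Acot2 (-0.85) at such a p (background 12.6%). Without S9 or without S10, Pdk4 alone was, against 3071 of 15081 and 2307 of 15174 genes. Without the 6 libraries against their labelled sex the median turned to 0.36, with 6 members positive. No member had an adjusted p under 0.05 in any of these fits.

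The S and WT/TKO libraries were also compared. In the groups labelled male WT and female KO, the 2 series also differed in Xist and the Y-linked genes. Series and sex-linked expression cannot be told apart in these groups. At equal labelled group, S minus WT/TKO log2 fold changes ran from -0.71 for Ppara to 0.15 for Pnpla2. No member had an adjusted p under 0.05, against 14.7% of all genes. Ppara was at 5.56 to 19.6 CPM in the S libraries (median 9.20) and at 10.6 to 31.6 CPM in the WT/TKO libraries (median 13.1), which overlapped (edgeR unadjusted p = 0.0143, adjusted p = 0.0748). It had an adjusted p of 0.0446 with DESeq2, of 0.0127 with no filter on low counts and of 0.0441 without S1, and was called at none of the other settings. It was the 1 member with an unadjusted p under 0.05 (background 31.1%), and 5 of 9 members were lower in the S libraries (median -0.04). The direction turned with the libraries kept. Without the 5 libraries of highest atrial marker sum 7 of 9 members were higher in the S libraries (median 0.33), 4 of them with an unadjusted p under 0.05 by edgeR (background 23.0%): Acot1 (0.54), Plin2 (0.47), Plin5 (0.52) and Pnpla2 (0.33). Without the 6 libraries against their labelled sex 8 of 9 were lower (median -0.40). Neither fit had a member with an adjusted p under 0.05. Atrial markers (5 of 5 tested) and white adipocyte markers (5 of 5 tested) were higher in the S libraries in the same comparison, with an adjusted p under 0.05 by edgeR. So were 4 of 5 macrophage markers, 2 of 3 brown adipocyte markers and 1 of 5 erythroid markers tested, while 7 of 8 ventricular markers were lower, 1 of them past the adjustment, as was 1 of 5 endothelial markers. Their part in these values was not tested.

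Many of the 9 genes varied together over libraries. Of the 36 pairs, 18 had a Pearson r of log2 CPM of at least 0.6 over 20 libraries, against 3.63% of all pairs of 15187 genes, and 35 were positive (median r 0.57). The points share library, depth and dissection, so r is given as a description. Acot1, Acot2, Plin2, Plin5 and Pnpla2, 5 genes picked after seeing the values, had r of 0.64 to 0.87 in all 10 pairs among themselves. The closest pairs were Acot1 with Plin2 (0.87), Acot1 with Acot2 (0.87), whose counts may be partly shared, Acot1 with Pnpla2 (0.86), Acot2 with Plin5 (0.86) and Pdk4 with Acot2 (0.86). Among all 15186 other genes, the 3 of highest r with Acot1 were Plin2, Acot2 and Pnpla2. By contrast Angptl4 reached 0.6 with none of the other 8 members, its highest being 0.52 with Plin2. Ppara did so with 2, Pdk4 (0.77) and Acot2 (0.60). The r of the receptor message with Angptl4 was -0.06 and with Pnpla2 0.25.

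A few libraries were low or high for nearly all members. S11 was among the 3 lowest of the 20 libraries for all 9 genes, and S12 for 7, while S1, WT1 and S4 had all 9 above the gene's own median and S8 had 8. S9 had none above it. After centring within labelled group and series, 21 of 36 pairs reached 0.6 (background 4.34%). In the S libraries alone 24 pairs did (background 6.29%) and in the 8 WT/TKO libraries 16 (background 8.93%). The count was 13 without S11 and 21 without S7, its lowest and highest with 1 library left out. Without the 5 libraries of highest atrial marker sum, 12 pairs were at 0.6 or more (background 5.04%): all 10 among Acot1, Acot2, Plin2, Plin5 and Pnpla2 (r of 0.62 to 0.84), and those of Pdk4 with Ppara (0.69) and with Acot2 (0.73). Ucp3 then had r of -0.03 with Pdk4 and 0.21 with Plin5, against 0.52 and 0.74 in all libraries. In the WT/TKO libraries 5 of the 10 pairs reached 0.6, with a lowest r of -0.36.

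**Figure D3:**
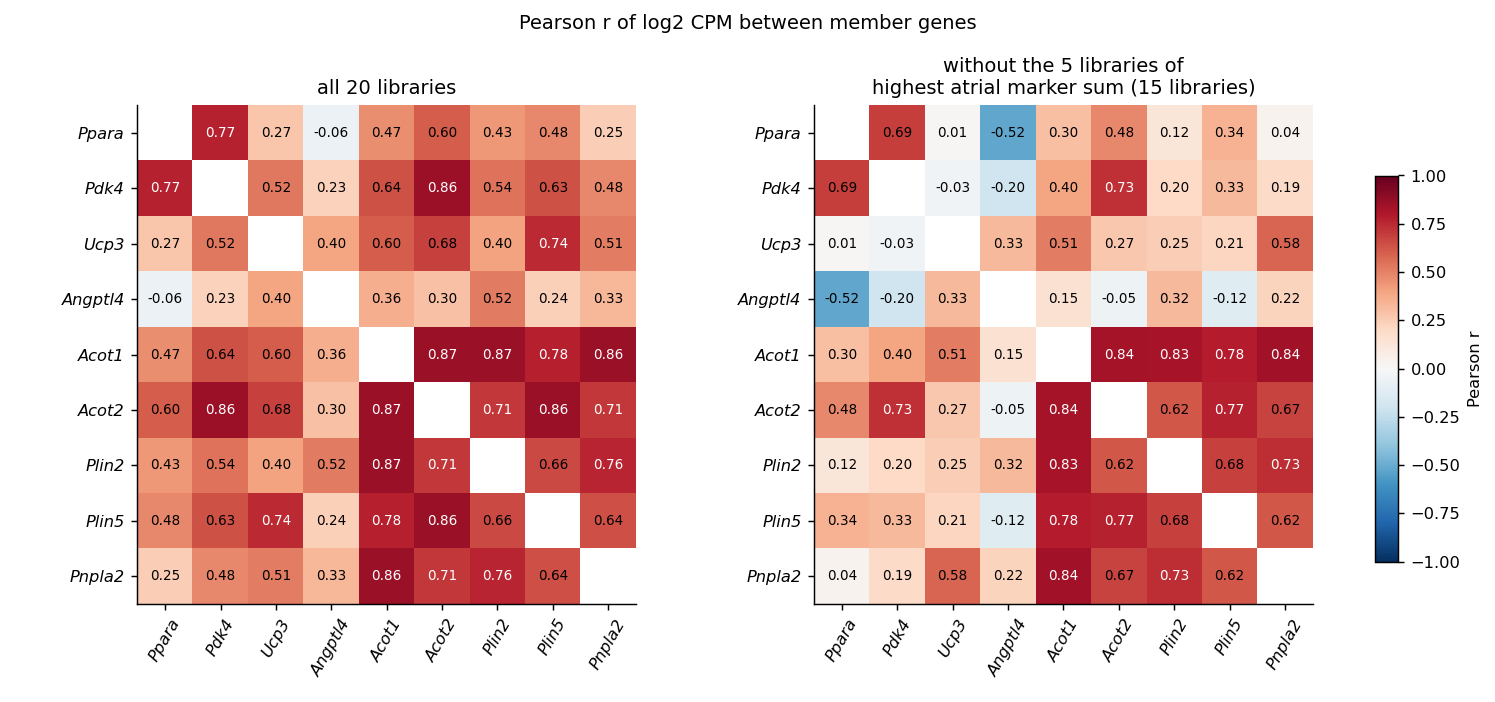
Pearson r of log2 CPM between each pair of the 9 genes, over all 20 libraries (left) and without the 5 libraries of highest atrial marker sum (right), with the colour scale from -1 to 1. The block of Acot1, Acot2, Plin2, Plin5 and Pnpla2 stands at 0.62 to 0.84 on the right, where Ucp3 and Angptl4 have no pair at 0.6.

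**Figure D4:**
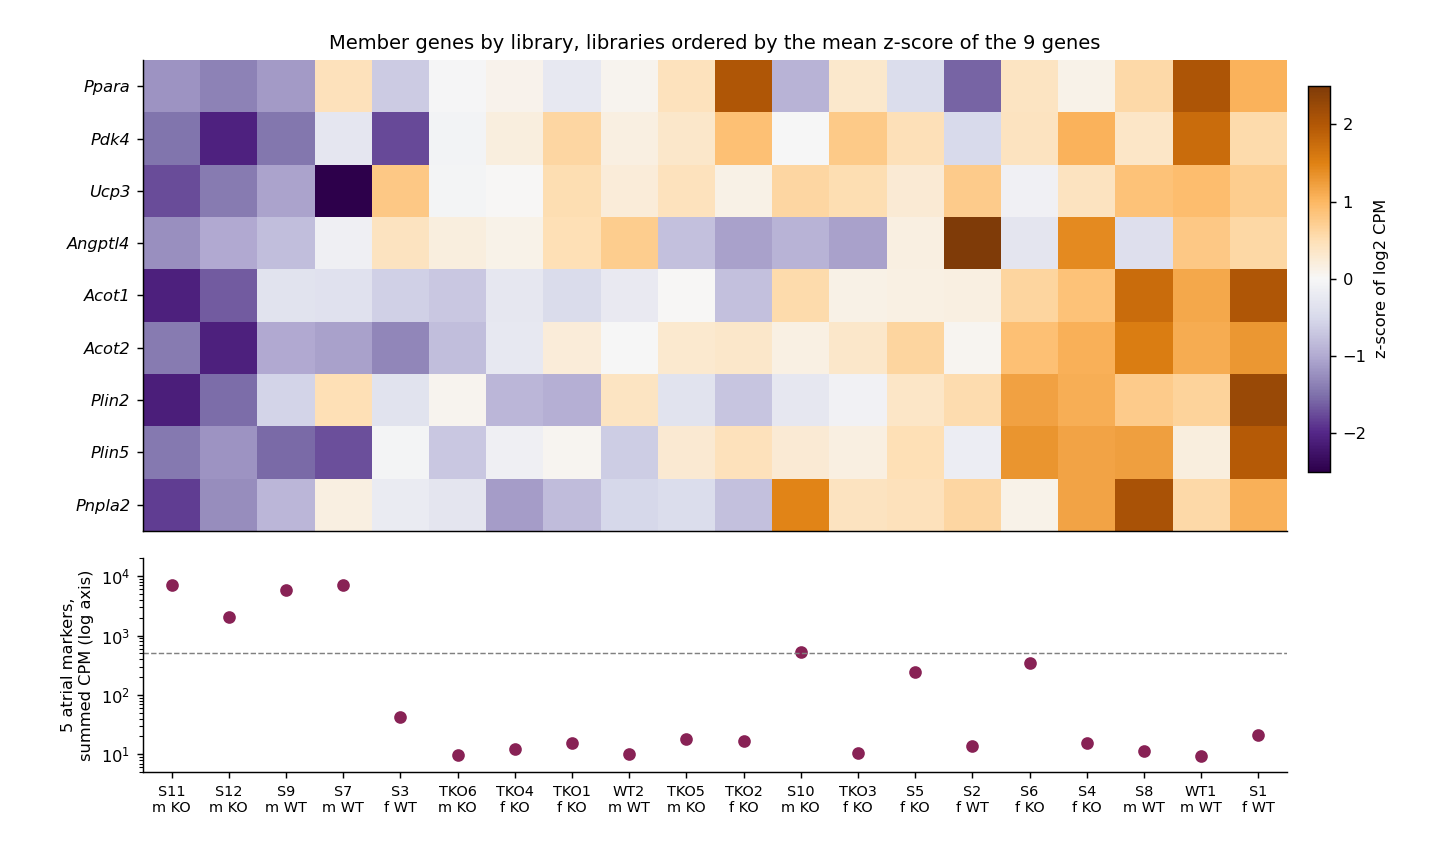
z-scores of log2 CPM of the 9 genes (rows) in 20 libraries, ordered by their mean z-score, above the summed CPM of 5 atrial markers on a log axis with a dashed line at 500 CPM; m and f are the labelled sex. The 4 libraries with the lowest means, S11, S12, S9 and S7, have sums of 2061 CPM or more.

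Ucp3 and Pdk4 were set beside the atrial transcripts, a description with libraries picked after seeing the values. In the 5 libraries of highest atrial marker sum Ucp3 had a median of 115 CPM, against 286 CPM in the other 15, and the ranges overlapped. It was at 56.6 CPM in S7, 97.2 in S11, 115 in S12 and 136 in S9, but at 311 CPM in S10, whose marker sum was 537 CPM, and at 219 to 363 CPM in the other 15. In S7, S11, S12 and S9 Pdk4 was at 2872, 1825, 1460.1 and 1834 CPM, and S3, with a marker sum of 42.2 CPM, was at 1634 CPM, so low Pdk4 was also seen at a low marker sum. Pnpla2 was at 473 to 660 CPM in the same 4 libraries and at 533 to 908 CPM in the others, which overlapped. The part of tissue content in these levels was not tested. White adipocyte markers summed to 938 CPM in S7 and to 12.4 CPM in S11, both low for Ucp3. Pnpla2 and Plin2, which fat cells also express, were at 660 and 94.4 CPM in S7.

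**Figure D5:**
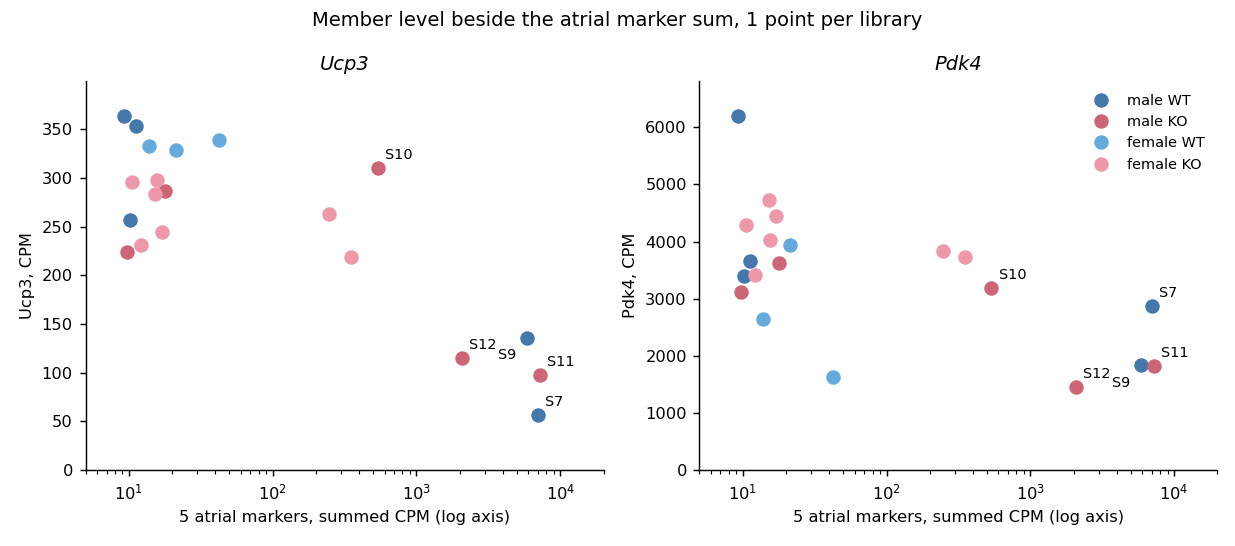
CPM of Ucp3 and Pdk4 (vertical axes, from 0) against the summed CPM of 5 atrial markers (log axis), 1 point per library, coloured by labelled group. The 4 libraries with sums of 2061 CPM or more have the lowest Ucp3, between 56.6 and 136 CPM, while S10 has 311 CPM at a sum of 537 CPM and S3 has low Pdk4 at a sum of 42.2 CPM.

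The genes nearest to each member by r over 20 libraries, with r between 0.75 and 0.95, were mostly no members. For Pdk4 they were Clpx (0.95), Dnaja2 (0.94) and Ctf1 (0.94). For Ppara they were Pdpr (0.92), Rprd1a (0.92) and 2610507B11Rik (0.91). Ucp3 had Cdk18 (0.92), Map7 (0.91) and Mbd1 (0.91), of which Cdk18 was at 0.23 and Map7 at 0.50 in the 8 WT/TKO libraries alone. Angptl4 had 1700017B05Rik (0.86), Tgtp2 (0.77) and Palmd (0.75), and Acot2 had Pank1 (0.93), Kpna2 (0.93) and Mlycd (0.91). Plin5 was nearest to Bsg (0.92), Mavs (0.91) and Epn1 (0.89). After Acot1, Plin2 was nearest to Agpat3 (0.81) and March5 (0.79), and Pnpla2 to Pla2g12a (0.82) and Nub1 (0.81). In the WT/TKO libraries alone March5 was at 0.35 with Plin2 and Pla2g12a at 0.24 with Pnpla2, and the remaining neighbours were at 0.53 or more. With a threshold of 0.6, Acot1 had 6 of the 8 other members against 2.17% of all genes, Acot2 7 against 7.01%, Plin5 6 against 4.79%, Plin2 4 against 1.15%, Pnpla2 4 against 0.889%, Pdk4 4 against 11.6%, Ucp3 3 against 4.56%, Ppara 2 against 9.39% and Angptl4 0 against 0.705%.

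Other genes of the pathway were followed as lists. Of 17 receptors and co-regulators (RXRs, PGC-1 and corepressors), 14 were lower in male KO libraries, with a median log2 fold change of -0.14, and 0 had an adjusted p under 0.05 by edgeR, 1 an unadjusted p under 0.05, a share near the 4.75% of all genes. That gene was Ppargc1a, the coactivator PGC-1alpha, at -0.94 (edgeR unadjusted p = 0.0118, adjusted p = 0.882), followed by Lpin1 at -0.70. In female KO libraries 7 of the 17 were higher and 10 lower, 2 and 1 of them with an unadjusted p under 0.05, again near the 17.9% of all genes. Ppargc1a was there at 0.83 (edgeR unadjusted p = 0.0084, adjusted p = 0.184) and Esrrg, an orphan receptor of mitochondrial genes, at 0.71. The difference between the labelled sexes for Ppargc1a was -1.45 (edgeR unadjusted p = 0.0080, adjusted p = 0.226). Of 27 other PPAR targets tested, 22 were lower in male KO libraries (median -0.19) and none had an adjusted p under 0.05. An unadjusted p under 0.05 by edgeR (4.75% of all genes) was seen for 2, both lower: Acot3 (-1.46), a peroxisomal thioesterase, and Ehhadh (-1.19), an enzyme of peroxisomal oxidation. Among 26 tested in the female libraries, 14 were higher (median 0.02), and 2 of the higher and 4 of the lower had an unadjusted p under 0.05 (17.9% of all genes), with Cpt1b, the carnitine palmitoyltransferase of muscle mitochondria, at -1.03 (edgeR unadjusted p = 3.2e-04, adjusted p = 0.0977) and Acot3 at -1.85.

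Of 23 other lipid droplet and lipolysis genes tested, 18 were lower in male KO libraries (median -0.20) and 2 had an edgeR unadjusted p under 0.05 (4.75% of all genes), Plin1 (-4.09) and Cidec (-3.92), both fat cell genes that S7 held at 89.4 and 181 CPM. In female KO libraries 14 of 22 were higher (median 0.18), 5 of them and 1 of the lower ones with an unadjusted p under 0.05 (17.9% of all genes), with Plin3 at 0.80 and Plin4 at -0.66 (edgeR adjusted p = 0.149 each). Kinase, thioesterase, uncoupling and angiopoietin-like relatives had 8 of 15 higher in male KO libraries (median 0.00) and 9 of 16 in female ones (median 0.10). Acot13 was at 0.23 in male, and Angptl7 at 0.46 and Pdp2 at 0.53 in female KO libraries. None of these 4 lists had a member with an adjusted p under 0.05 in KO against WT by edgeR, within either labelled sex or over both. Between the series, Cyp4a10 (6.11), Cyp4a14 (4.93), Vnn1 (2.82) and Ucp2 (0.42) of the PPAR targets were higher in the S libraries, as were Plin1 (7.74), Cidec (5.18) and Hilpda (0.63). Plin4 (-0.47), Lipa (-0.45), Ncor1 (-0.32) and Med1 (-0.25) were lower there, all with an adjusted p under 0.05 by edgeR. Ucp1 (5.70) was higher and Angptl7 (-1.42) and Pdp2 (-0.74) lower.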

How the data were processed

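Heart RNA of 20 libraries was compared by the groups of the sample labels. The authors deposited whole-number read counts and FPKM for 29339 Ensembl genes. Labels name poly-T selection, an NEBNext Ultra kit and 150 bp paired-end HiSeq reads, and the submitters' processing notes name HISAT2, HTSeq 0.6.1p2, DESeq2 1.26.0 and GRCm38. Strand setting and annotation release are not given in the sources used here, so coordinates are from GENCODE M21, whose exon length was within 1% of the file's for 28730 genes. Depth was 12540002 to 20038593 counts, mitochondrial genes taking 15.3% to 30.4%, and the 9 genes had at least 86 counts in each library.

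Counts were scaled by TMM and tested with edgeR 4.0.16 (quasi-likelihood, library series as covariate, keeping genes that reached 10 counts in 3 or more libraries, Benjamini-Hochberg over all genes). The study's thresholds were a log2 fold change of 0.58 or more in size with an unadjusted p under 0.05. Correlations are Pearson's r of log2 CPM with a prior count of 2. Alternatives were DESeq2 1.42.0, limma 3.58.1 on log2(FPKM + 1), no filter, upper-quartile scaling, no series covariate, S libraries alone, 6 libraries with other sex-linked genes left out, each library left out, and, chosen after seeing the data, the 5 libraries whose atrial marker sum reached 500 CPM left out. R 4.3.3, Python 3.11.15, numpy 2.4.6 and matplotlib 3.10.9 were used. The genes and lists were chosen with earlier results of these data known. Named genes are the 9 members, Tecrl and sex-linked genes, for each list up to 6 genes with an adjusted p under 0.05 or else the 2 of smallest p per comparison, and the 3 genes nearest to each member by r. A gene that this rule picks is not reported here. Genes named for a library's tissue content are from the marker lists. Promoter windows were from RefSeq (GRCm38.p6).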

Additional observations from a re-analysis of the deposited data

Results flagged for a closer look

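Within the labelled groups of 5 or 7 libraries, 27 sets of values of the 9 genes were examined for a library far from the rest, and 2 were found. Chance gives about 1 in 20. Ppara in TKO2, labelled female KO, was at 31.4 CPM, against 9.69 to 14.5 CPM in the other 6 libraries of the group, a gap of 0.78 of the group's range. Only WT1 had as much Ppara. Pdk4 in TKO2 was at 4454 CPM, within the 3422 to 4721 CPM of its group. Angptl4 in TKO6, labelled male KO, was at 72.3 CPM, against 44.4 to 52.3 CPM in the other 4, a gap of 0.716 of the range. That is just past the cut-off of 0.71 for 5 libraries (0.568 for 7). S10, S11 and S12 of this group are of the other series. The causes were not tested. Without TKO6 the log2 fold change of Angptl4 in the libraries labelled male was -0.45, and without it the adjusted p did not pass 0.05.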

How the results depend on the processing

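No adjusted p under 0.05 was reached by any of the 9 genes in the following comparisons, under any alternative run. These were KO against WT in libraries labelled male and over both labelled sexes, and the difference between the labelled sexes. In the libraries labelled female the count was 0 under all alternatives but without S1, where it was 3 (0 to 3 with 1 library left out). For the series it was 1 (Ppara) with DESeq2, 1 with no filter, 0 otherwise, and 0 to 1 with 1 library left out, S1 giving the 1. The count past the study's thresholds in male libraries was 1 as reported. It was 2 with DESeq2 (330 of all 14445 genes), 2 with no filter (852 of 27220) and 2 in S libraries alone (379 of 14120). It was 0 with no series covariate, without S7 to S9 or without the 5 libraries of highest atrial marker sum. With 1 library left out it was 0 to 5, the 5 being without S10 (286 of 14430). In female libraries it was 0 in the S libraries alone, 2 without S4 to S6 (15.1% of all genes) and 0 to 2 with 1 library left out. Over both labelled sexes it was 3 without the 6 libraries whose sex-linked genes go against the label (3.15% of all genes). With 1 library left out it was 0 to 2. Correlated pairs numbered 12 on the FPKM scale, 15 by Spearman's rho and 13 to 21 with 1 library left out.

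Signs turned in these cases, all log2 fold changes, with male, female and sex as labelled. Male: Plin5 0.0013 without S7 to S9 and 0.013 without the 5 atrial-marker libraries, and with 1 left out Ucp3 -0.57 to 0.31 and Plin5 -0.28 to 0.25. Female: with limma, Acot1 0.027 and Plin2 0.052; with no series covariate, Plin5 -0.11 and Pnpla2 -0.13; without S4 to S6, Acot2 -0.028, Plin5 -0.32 and Pnpla2 -0.26; with 1 left out, Ppara -0.22 to 0.78, Angptl4 -0.75 to 0.0021, Acot1 -0.38 to 0.41, Plin2 -0.23 to 0.31, Plin5 -0.062 to 0.57 and Pnpla2 -0.060 to 0.086. Both sexes: without the 5 libraries, Pdk4 0.14, Acot2 0.031 and Plin5 0.072; with 1 left out, Pdk4 -0.25 to 0.071 and Plin5 -0.15 to 0.074. Sex difference: without the 5 libraries, Ucp3 -0.0079; without the 6, Acot1 0.36, Plin2 0.79, Plin5 0.58 and Pnpla2 0.12; with 1 left out, Angptl4 -0.13 to 0.61, Plin2 -0.48 to 0.065, Plin5 -0.46 to 0.34 and Pnpla2 -0.23 to 0.011. Series: without the 5, Ucp3 0.0055, Angptl4 0.16 and Acot2 0.42; without the 6, Acot1 -0.25, Plin2 -0.41 and Plin5 -0.25; with limma, Acot2 0.011; with 1 left out, Acot2 -0.18 to 0.070 and Plin5 -0.070 to 0.18. The causes were not tested. In male libraries, the fits without S7 to S9 and without the 5 libraries rest on WT1, WT2, TKO5 and TKO6 alone. With the female fit without S4 to S6 the series term was dropped, since it coincides with genotype.

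No paired analysis was possible because the numbers in the library names run on across groups and no label says that a number marks a shared animal, litter or day. As to depth, each gene had 86 counts or more in each library.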

Other observations

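Genes of the fasting response and of the clock, which PPAR-alpha targets are known to follow, were also counted. Of 15 glucocorticoid, FoxO and fasting response genes tested, 8 were higher in KO in the libraries labelled male (median log2 fold change 0.02) and 11 in those labelled female (median 0.18), with 0 adjusted p under 0.05 by edgeR and 1 and 4 with an unadjusted p under 0.05, against 4.75% and 17.9% of all genes. Irs2, an insulin signalling adaptor, was at -1.10 and Sesn1 at -0.31 in male KO libraries, and Trim63, a ubiquitin ligase of muscle wasting, at 1.42 and Cebpb at 0.60 in female ones (edgeR adjusted p = 0.141 both). Of 14 clock genes, 8 were lower in male (median -0.07) and 10 in female KO libraries (median -0.21). An unadjusted p under 0.05 by edgeR was seen for 2 in male, both higher (4.75% of all genes), and for 5 in female, all lower (17.9%). Dbp (0.58) and Npas2 (0.90) had the smallest p-values in male and Per2 (-0.96) and Ciart (-0.83) in female libraries. Between the series, Nr1d1 (1.08), Dbp (0.48) and Cebpb (0.51) were higher and Cry1 (-0.38), Clock (-0.36) and Fbxo32 (-0.87) lower in the S libraries with an adjusted p under 0.05 by edgeR. Over both labelled sexes, genes of small p-value by list were Sirt1 (-0.19) and Ncor1 (-0.15), Acot3 (-1.44) and Pex11a (-0.33), Plin4 (-0.38) and Dgat1 (-0.30), Angptl7 (0.71), Cebpb (0.34) and Trim63 (0.64), and Npas2 (0.89) and Per1 (-0.32). None of these passed the adjustment (edgeR adjusted p of 0.743 or more). For the difference between the labelled sexes (male minus female) the smallest p-values by list were those of Ppargc1a (-1.45) and Med1 (0.37), Cpt1b (1.21) and Cyp4a10 (-3.95), Cidec (-6.08) and Plin1 (-5.52), Ucp1 (-4.95) and Pdk1 (-0.75), Irs2 (-1.69) and Klf9 (-0.76), and Ciart (1.16) and Per2 (0.98), with edgeR adjusted p of 0.223 or more.

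Ratios of FPKM within a library differed between pairs of related genes. Acot1 to Acot2 ran from 0.115 in TKO2 to 0.231 in S1 (median 0.177). Plin5 to Plin2, the droplet coats, ran from 2.48 in S7 to 7.41 in TKO2 (median 5.61). In S7, the library rich in fat cell transcripts, Plin5 had its lowest level, 139 CPM, and Plin2 was at 94.4 CPM. The cause of the low ratio was not tested. Ucp3 to Pdk4 ran from 0.0221 in S7 to 0.233 in S3 (median 0.0817), both labelled WT.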
